A study of Mus musculus with 10 samples.

Results

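YAP-TEAD signalling was described across the 10 arrays of the series through 10 genes: the coactivators Yap1 and Wwtr1, the DNA-binding partners Tead1, Tead2 and Tead4, and the targets Ccn1, Ccn2, Amotl2, Ankrd1 and Axl. The genes were chosen by name, as every probe set that the probe annotation pairs with exactly 1 of these symbols, which gave 20 of 45037 probe sets. They stand for 10 of the 18193 genes that have such a probe set. Each array measured total RNA from sorted mouse cells on an Affymetrix mouse expression array, where 1 or more probe sets read a transcript.

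AG-haESC, androgenetic haploid embryonic stem cells, carry a single genome of paternal origin and came from blastocysts. There were 5 lines of C57BL/6J genotype, each on 1 array, at passages 12 to 15. Replicates 1, 2, 4 and 5 (AGH-OG-1, AGH-OG-2, AGH-OG-3 and AGH-OG-4) carried an Oct4-EGFP transgene, and replicate 3 (AGH-EG-1) carried Actin-EGFP. E14 is a wild-type diploid embryonic stem cell line of 129/Sv genotype, on 3 arrays at passage 17. MEF are wild-type male mouse embryonic fibroblasts of B6D2F1 genotype from d13.5 embryos, on 2 arrays at passage 2. Cells were sorted by DNA content after a Hoechst stain (15 µg/ml), AG-haESC as the haploid 1n population, and E14 and MEF as the diploid 2n one. AG-haESC grew on feeder cells with the inhibitors CHIR99021 and PD0325901, and for E14 and MEF the sources used here give no medium. Ploidy, parental origin of the genome, strain, transgene and passage all differ between AG-haESC and E14 and cannot be told apart. All E14 arrays are of a single line, and the sources used here do not say if the MEF arrays came from separate embryos, so the p-values that involve these groups measure only the spread between these arrays.

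YAP (Yap1) and TAZ (Wwtr1) are transcriptional coactivators at the end of the Hippo pathway. When the kinases LATS1 and LATS2 phosphorylate them they are kept in the cytoplasm or degraded, and when they are not phosphorylated they enter the nucleus and activate transcription with the TEAD proteins, which bind DNA. Much of this control acts on the protein and not on the mRNA, so the level of the coactivators' transcripts and that of their target genes are separate readouts. In the early mouse embryo, TEAD4 with nuclear YAP directs outer cells to the trophectoderm. In fibroblasts, CCN1 (CYR61) and CCN2 (CTGF), both secreted matrix-associated proteins, are among the most used readouts of YAP activity.

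The short sequence GGAATG, or CATTCC on the other strand, is the core that TEAD proteins recognise. RefSeq promoter windows of build GRCm38.p6 were available for 7 of the 10 genes, and the 250 bases before the annotated start were searched on both strands, which share no overlapping match. Of these 7 genes, 6 held the motif at least once, Yap1 and Wwtr1 among them, and Tead2 held none. Over all 32851 windows the share with at least 1 motif was 12.6%, and over the 27025 genes with a window 14.4% had a motif in any window. The windows of the 4 targets that have one are printed here because these genes carry the comparisons below. Capitals mark the motif, each sequence runs 5′ to 3′ on the gene's own strand, and the annotated start follows the last base.
Ccn1, chr3:145649986-145650235, minus strand: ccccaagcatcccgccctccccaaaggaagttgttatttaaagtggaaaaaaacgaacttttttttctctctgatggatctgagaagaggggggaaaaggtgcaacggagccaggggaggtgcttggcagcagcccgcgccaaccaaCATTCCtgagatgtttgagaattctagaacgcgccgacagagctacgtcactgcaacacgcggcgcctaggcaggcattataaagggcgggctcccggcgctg
Amotl2, chr9:102717554-102717803, plus strand: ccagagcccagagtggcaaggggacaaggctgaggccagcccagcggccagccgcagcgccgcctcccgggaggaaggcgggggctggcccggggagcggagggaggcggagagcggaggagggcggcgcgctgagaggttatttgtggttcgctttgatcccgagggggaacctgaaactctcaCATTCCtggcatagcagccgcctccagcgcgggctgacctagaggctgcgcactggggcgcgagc
Ankrd1, chr19:36119845-36120094, minus strand: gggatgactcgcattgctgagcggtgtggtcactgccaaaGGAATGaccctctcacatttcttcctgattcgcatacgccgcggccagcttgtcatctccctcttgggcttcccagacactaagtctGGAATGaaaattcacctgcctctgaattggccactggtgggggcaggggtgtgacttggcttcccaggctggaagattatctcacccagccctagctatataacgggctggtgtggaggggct
Axl, chr7:25788734-25788983, minus strand: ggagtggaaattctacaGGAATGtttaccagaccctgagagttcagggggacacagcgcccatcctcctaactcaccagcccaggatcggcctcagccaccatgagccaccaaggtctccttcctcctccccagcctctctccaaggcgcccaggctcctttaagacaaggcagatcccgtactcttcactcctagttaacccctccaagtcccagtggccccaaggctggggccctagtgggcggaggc
The motif begins 103 bases before the start in Ccn1, 65 in Amotl2 and 233 in Axl. Ankrd1 holds it at 210 and again at 123 bases before the start, and only 1.02% of all windows hold it at least 2 times. A match describes these letters only and is not evidence that a TEAD protein was bound in any of the cells.

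The values are signals scaled by the authors to the same trimmed mean of 500 in each array, and array medians ran from 55.9 to 68.0 on that linear scale. All levels below are log2 signals, and a signal at or below its array's median is close to background. Of the 20 probe sets, 19 were above the array median in at least 2 arrays and were tested, and the other, the second for Axl, lay below the median in every array. A gene is read at its brightest tested probe set, so that all 10 genes are represented, and a gene is called when the adjusted p of limma lies below 0.05 and the difference is at least 2-fold. Over the tested probe sets Pearson's r was 0.959 between E14 replicates 1 and 2, against 0.919 and 0.909 for E14 replicate 3 with each of them. E14 replicate 3 thus stood apart from its group, and results that it moves are also given without it. The labels matched their markers at the level of groups. All 24 fibroblast markers were lower in AG-haESC than in MEF, and 11 of 12 pluripotency markers were higher, beside 22.5% and 19.6% of all genes.

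Of the 5 target genes 4, and of the 3 TEAD genes 1, were higher in AG-haESC than in E14, while the coactivators were not called. In all, 5 of the 10 genes were called higher and 0 lower, where 4.38% of the 13251 genes tested were called higher and 3.61% lower. By probe set, 10 of 19 were called higher and none lower by limma, beside 4.37% and 2.89% of all those tested. Both Tead4 probe sets, part of these counts, passed the filter only through AG-haESC arrays. The median difference, AG-haESC minus E14, was 0.63 over the 10 genes and -0.082 over all genes. The arrays of the groups did not overlap for 4 of the 10 genes, as they did not for 22.6% of all genes. The count of 5 fell to 3 without AG-haESC replicate 5, to 4 without any of AG-haESC replicates 2 and 3, E14 replicates 1 and 2 and the MEF replicates, and was 5 without E14 replicate 3. In bulk RNA, a change in the share of cells that express a gene and a change in the RNA per cell cannot be told apart.

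**Figure D1:**
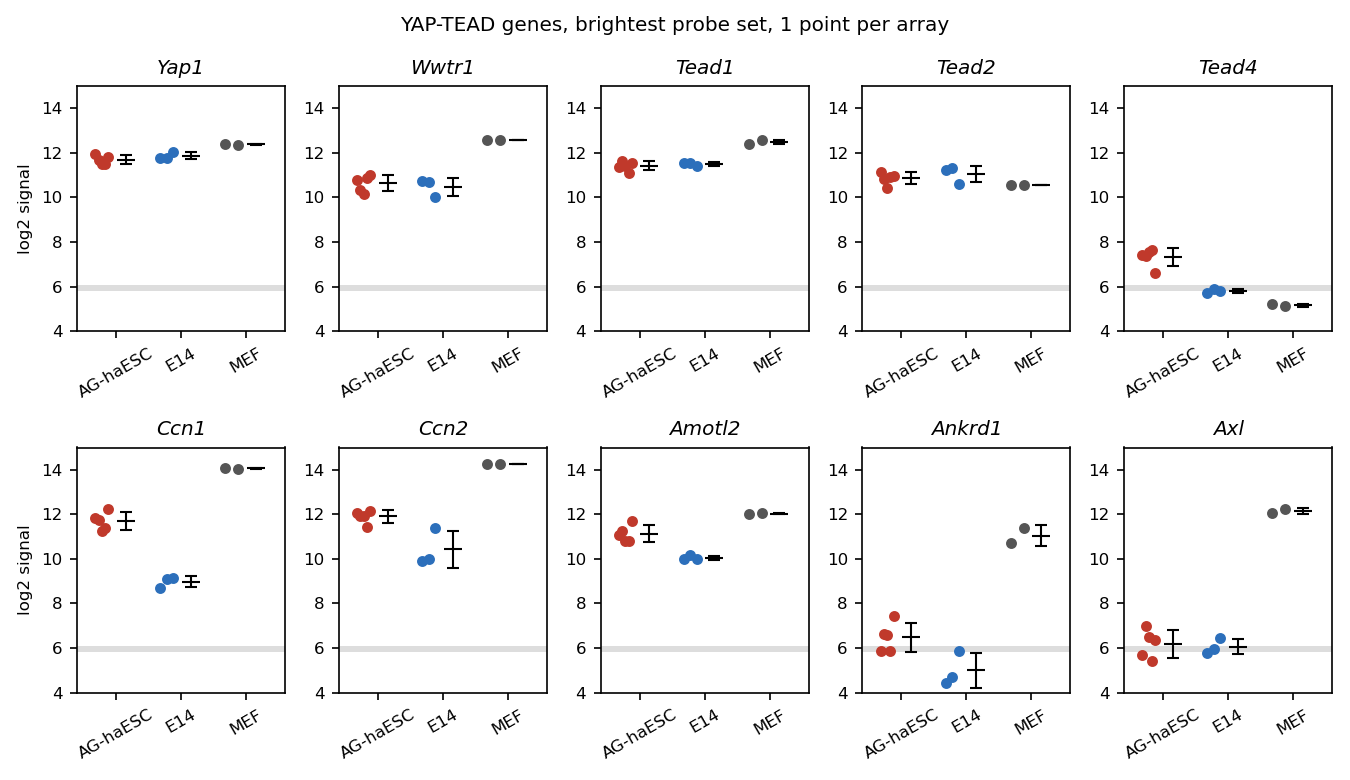
Log2 signal of each YAP-TEAD gene at its brightest probe set, with 1 point per array and the mean ± SD beside each group (AG-haESC n = 5, E14 n = 3, MEF n = 2). The grey band marks the range of the array medians. Ccn1, Ccn2 and Amotl2 lie between E14 and MEF in AG-haESC, and Tead4 is above the band in AG-haESC only.

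Both coactivator genes were expressed well above background in every array and did not separate the stem cell groups. Yap1 had log2 signals of 11.97, 11.66, 11.50, 11.52 and 11.83 in the AG-haESC lines, against 11.79, 11.78 and 12.05 in E14. The groups overlapped, and the difference was -0.18 ± 0.13 (SE, adjusted p = 0.420), with a 95% interval of -0.46 to 0.11. Wwtr1 had 10.80, 10.32, 10.17, 10.88 and 11.00 in AG-haESC, against 10.73, 10.69 and 9.997 in E14. These ranges also overlapped, with a difference of 0.16 ± 0.22 (adjusted p = 0.692) and a 95% interval of -0.33 to 0.65. Without E14 replicate 3 the Wwtr1 difference was -0.077 (adjusted p = 0.837). Both intervals lie within a 2-fold change in either direction. The second Yap1 probe set, which is dimmer, gave 0.62 ± 0.25 (adjusted p = 0.123), and the other Wwtr1 probe sets gave 0.089 and 0.32.

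Against MEF the coactivators parted. Wwtr1 averaged 10.63 ± 0.37 in AG-haESC and 10.47 ± 0.41 in E14 (SD), against 12.58 and 12.58 in MEF. It was lower in AG-haESC than in MEF, with a difference of -1.95 ± 0.26 (adjusted p = 6.12e-05). In E14 it was also lower, at -2.11 ± 0.28 (adjusted p = 7.61e-05), and all 3 of its probe sets were called in both comparisons. Yap1 averaged 11.70 ± 0.20 in AG-haESC and 11.87 ± 0.15 in E14, against 12.41 and 12.37 in MEF, which lay above every stem cell array. Its differences were -0.69 ± 0.15 for AG-haESC (adjusted p = 0.00226) and -0.51 ± 0.16 for E14 (adjusted p = 0.0212), both short of the 2-fold threshold. At the dimmer Yap1 probe set AG-haESC and MEF overlapped (-0.23, adjusted p = 0.514), and the E14 difference was -0.86 (adjusted p = 0.0356).

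Among the TEAD genes chosen here, Tead1 and Tead2 were at like levels in AG-haESC and E14, and Tead4 was higher in AG-haESC. Tead1, a broadly expressed member of the family, averaged 11.42 ± 0.20 in AG-haESC and 11.50 ± 0.08 in E14 (SD, n = 5 and 3), a difference of -0.083 ± 0.13 (SE, adjusted p = 0.725, 95% interval -0.37 to 0.20). Tead2, the family member best known from the early embryo and neural tissue, averaged 10.85 ± 0.27 in AG-haESC and 11.05 ± 0.38 in E14, with a difference of -0.20 ± 0.19 (adjusted p = 0.555, 95% interval -0.61 to 0.22). Neither interval reaches a 2-fold change. Tead1 has a second, dimmer probe set that gave 0.67 ± 0.25 (adjusted p = 0.107) and so differs in sign.

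Tead4, required in the mouse embryo for the trophectoderm, had log2 signals of 7.41, 7.39, 7.56, 7.63 and 6.60 in the AG-haESC lines. In E14 it had 5.69, 5.90 and 5.82, each below the median of its array, and in MEF 5.201 and 5.116, also below. Every AG-haESC line was above every other array, and replicate 5 was the lowest of them. The difference from E14 was 1.52 ± 0.29 (adjusted p = 0.00577), which corresponds to at least 2.43-fold when E14 is put at the array medians, and that from MEF was at least 2.52-fold (adjusted p = 0.000196). The second Tead4 probe set had 6.99, 6.87, 6.61, 6.85 and 6.98 in AG-haESC, against 2.50, 4.06 and 3.74 in E14 and 1.58 and 2.61 in MEF. It was called in both comparisons, at least 1.77-fold higher than in E14 (adjusted p = 0.00107) and at least 1.84-fold higher than in MEF (adjusted p = 2.52e-05). E14 and MEF were both below background for Tead4, so no order between them is given. Both Tead4 probe sets exceeded the array median in AG-haESC arrays only. They were thus tested through that group alone, and their p-values depend on it.

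Among the targets, Ccn1 was higher in AG-haESC than in E14 at each of its probe sets. At the brightest, above background in every array, it had 11.84, 11.73, 11.26, 11.38 and 12.26 in the AG-haESC lines, against 8.70, 9.12 and 9.14 in E14. The groups were more than 2 log2 units apart, with a difference of 2.71 ± 0.21 (adjusted p = 1.77e-05), or 6.53-fold. All 4 Ccn1 probe sets were called, with differences from 2.22 to 3.60. The 2 dimmer ones were uneven among lines, with 10.17 and 10.15 in replicates 4 and 5 and 7.84 to 8.30 in the other AG-haESC lines for the probe set 1442340_x_at. Probe sets whose name ends in x_at hold probes that may also bind other sequences, and the brightest Ccn1 probe set is of this kind, while 1438133_a_at, at 3.60 ± 0.17 (adjusted p = 7.87e-07), is not.

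Ccn2, the sister gene of Ccn1, had 12.08, 11.92, 11.93, 11.44 and 12.16 in AG-haESC, against 9.91, 9.98 and 11.40 in E14. The groups did not overlap, but E14 replicate 3 came close to the lowest AG-haESC line. The difference was 1.47 ± 0.29 (adjusted p = 0.00758), and without E14 replicate 3 it was 1.96 (adjusted p = 4.10e-05). Amotl2, a target that encodes an angiomotin family protein which binds YAP and holds it outside the nucleus, had 11.09, 11.26, 10.82, 10.82 and 11.70 in AG-haESC and 9.98, 10.17 and 9.98 in E14. Its groups did not overlap, with a difference of 1.10 ± 0.19 (adjusted p = 0.00327). Without AG-haESC replicate 5, its highest array, the difference was 0.96 (adjusted p = 0.00311), just under the 2-fold threshold.

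Ankrd1, a nuclear ankyrin repeat protein of muscle and a common YAP readout, was close to background in both stem cell groups. It had 5.88, 6.63, 6.59, 5.87 and 7.46 in AG-haESC and 4.42, 4.70 and 5.89 in E14, where every array was below its own median. E14 replicate 3 overlapped the 2 lowest AG-haESC lines. The difference of 1.48 ± 0.43 (adjusted p = 0.0435) corresponds to at least 1.36-fold and was lost, with adjusted p from 0.0608 to 0.415, under 12 of 20 other settings. Among these were the fits without AG-haESC replicates 2, 3 or 5, E14 replicates 1 or 2, or either MEF replicate. Without E14 replicate 3 it was 1.93 (adjusted p = 0.00987). Axl, a receptor tyrosine kinase, had 5.68, 6.97, 6.499, 5.40 and 6.37 in AG-haESC and 5.79, 5.95 and 6.47 in E14, around the array medians in both. It was not called (0.12 ± 0.34, adjusted p = 0.870, 95% interval -0.64 to 0.87).

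**Figure D2:**
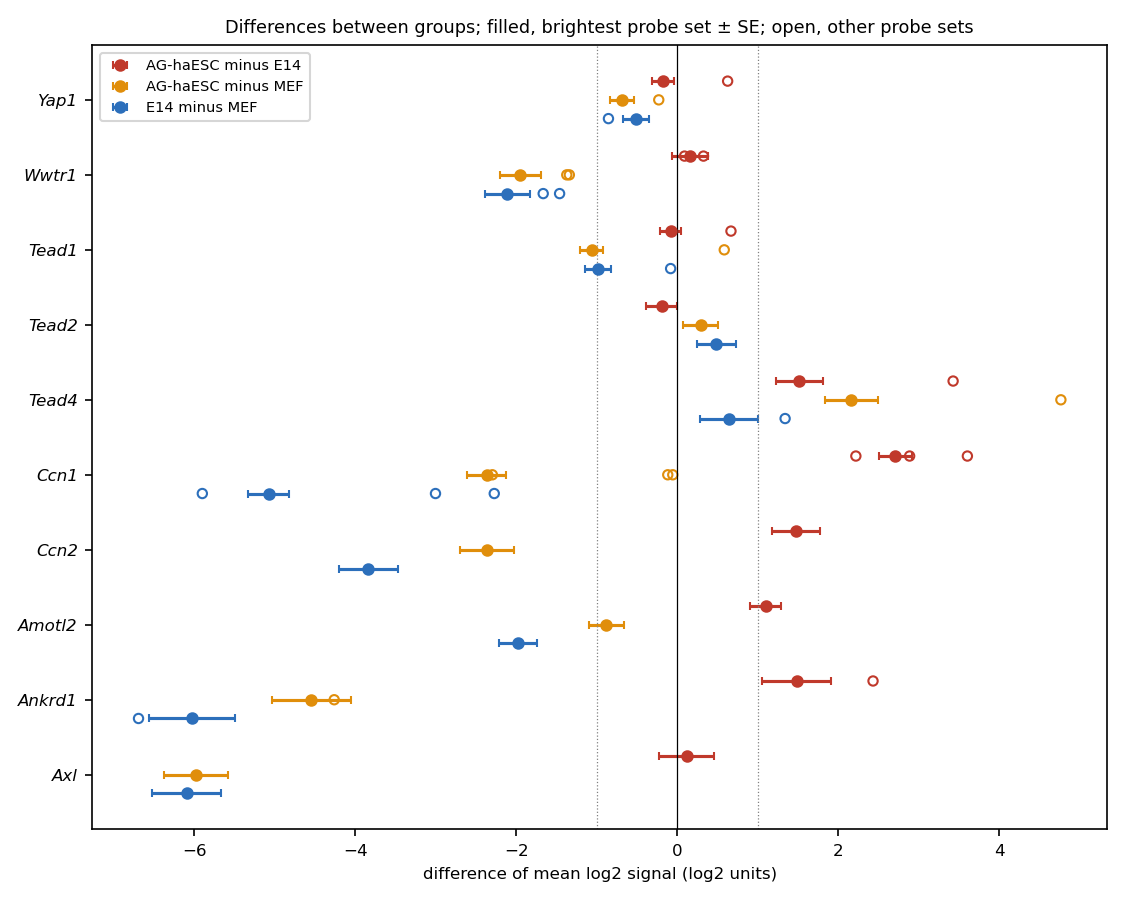
Difference of mean log2 signal (log2 units) for each gene, filled at the brightest probe set with its SE and open at other tested probe sets, for AG-haESC minus E14, AG-haESC minus MEF and E14 minus MEF. Dotted lines mark a 2-fold difference. The AG-haESC minus E14 points of Tead4, Ccn1, Ccn2, Amotl2 and Ankrd1 lie right of 1, while those of Yap1, Wwtr1, Tead1, Tead2 and Axl lie between -1 and 1.

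Fibroblasts were the highest group for 8 of the 10 genes. Against MEF, 6 of the 10 genes were called lower in AG-haESC and 1 higher, where 22.5% of all genes were called lower and 19.6% higher. In E14, 6 were called lower and 0 higher by limma, where 21.1% of all genes were called lower and 20.8% higher. The arrays did not overlap for 9 of 10 genes between AG-haESC and MEF (70.3% of all genes) and for 10 of 10 between E14 and MEF (73.9%). Because AG-haESC and E14 are set against the same MEF arrays, these comparisons are not independent, and the values of each are given side by side.

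Of the 5 targets, 4 were called lower than in MEF in both stem cell groups, and Amotl2 was called in E14 and not in AG-haESC. Ccn1 averaged 11.69 ± 0.40 in AG-haESC and 8.98 ± 0.25 in E14 (SD), against 14.07 and 14.05 in MEF, with differences of -2.37 ± 0.24 for AG-haESC (adjusted p = 7.73e-06) and -5.08 ± 0.26 for E14 (adjusted p = 7.39e-08). Ccn2 averaged 11.91 ± 0.28 in AG-haESC and 10.43 ± 0.84 in E14, against 14.27 and 14.27 in MEF, with differences of -2.36 ± 0.34 for AG-haESC (adjusted p = 0.000116) and -3.84 ± 0.37 for E14 (adjusted p = 6.70e-06). The 2 dimmer Ccn1 probe sets did not separate AG-haESC from MEF, with differences of -0.12 (adjusted p = 0.910) and -0.057 (adjusted p = 0.948). The MEF arrays had 8.85 to 9.03 there, below AG-haESC replicates 4 and 5, so the order of AG-haESC and MEF for Ccn1 rests on the brighter probe sets.

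Amotl2 averaged 11.14 ± 0.37 in AG-haESC and 10.04 ± 0.11 in E14, against 12.003 and 12.038 in MEF. The difference of AG-haESC was -0.88 ± 0.22 (adjusted p = 0.00462), short of 2-fold, and -1.02 without AG-haESC replicate 5, which passed it. E14 was lower, at -1.98 ± 0.23 (adjusted p = 3.36e-05). Ankrd1 averaged 6.49 ± 0.66 in AG-haESC and 5.003 ± 0.78 in E14, against 10.70 and 11.37 in MEF. Axl averaged 6.18 ± 0.64 in AG-haESC and 6.07 ± 0.35 in E14, against 12.07 and 12.26 in MEF. AG-haESC were lower, with -4.55 ± 0.49 for Ankrd1 (adjusted p = 1.35e-05) and -5.98 ± 0.39 for Axl (adjusted p = 3.09e-07). E14 were at least 31.9-fold lower for Ankrd1 (adjusted p = 3.72e-06), and differed by -6.09 ± 0.43 log2 units for Axl (adjusted p = 6.86e-07).

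Tead1 in MEF, at 12.41 and 12.56, was above every stem cell array. Its difference was -1.07 ± 0.15 for AG-haESC (adjusted p = 9.41e-05), just past 2-fold, and -0.98 ± 0.16 for E14 (adjusted p = 0.000373), just short of it. The AG-haESC call did not hold without AG-haESC replicate 4 (-0.99) or MEF replicate 2 (-0.99), and that of E14 was gained without E14 replicate 2 (-1.01) or MEF replicate 1 (-1.05). With the mean of both probe sets the AG-haESC difference was -0.24 (adjusted p = 0.219), since the dimmer probe set was not lower in AG-haESC (0.58, adjusted p = 0.106). Tead2 was 10.56 and 10.56 in MEF, where its mean was the lowest, and neither difference was called (AG-haESC 0.29 ± 0.22, adjusted p = 0.288, and E14 0.49 ± 0.24, adjusted p = 0.111).

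On the linear scale the targets of AG-haESC stood at very different shares of the fibroblast level. Mean signal in AG-haESC was 19.96% of the MEF mean for Ccn1, against 2.99% in E14. For Ccn2 it was 19.7%, against 7.89% in E14 (4.9995% without E14 replicate 3), and for Amotl2 55.7%, against 25.4% in E14. Ankrd1 reached 4.54% and Axl 1.71% in AG-haESC. The gain of AG-haESC over E14, in percent of the MEF level, was thus 16.97 for Ccn1, 11.8 for Ccn2 and 30.2 for Amotl2. It was 2.89 for Ankrd1 and 0.215 for Axl. For both genes E14 lay below or around its array medians, so these gains are uncertain.

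AG-haESC grew on feeder cells, and fibroblast genes moved in the same comparison. Of 24 fibroblast markers, 8 were higher in AG-haESC than in E14 and 1 was lower, beside 4.38% and 3.61% of all genes. Their median difference was 1.12. The collagen gene Col1a1 was higher, by at least 3.89-fold (adjusted p = 0.0118), and Postn, a matrix protein, at least 3.13-fold (adjusted p = 0.00629), whereas Mmp2, a matrix protease, was lower (-1.67 ± 0.28, adjusted p = 0.00277). Col1a1 and Mmp2 were each called at 1 of 2 tested probe sets, with the other at 2.20 for Col1a1 and -0.99 for Mmp2. Summed over the list, linear signal was 28813 to 38761 in AG-haESC, against 19968 to 22615 in E14 and 275230 to 319390 in MEF. Bright genes weigh most in these sums. Sparc averaged 10567 in AG-haESC and 1926 in E14, and Col1a2 2015 and 330. Vim (8902 and 8994) and Fn1 (7177 and 7693) were not higher in AG-haESC. In AG-haESC only Fap was below the array median in every array, and in E14 Col1a1, Postn, Lum, Twist2 and Fap were. Without E14 replicate 3 the counts were 12 higher and 2 lower.

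In percent of the MEF level, the gain of AG-haESC over E14 had a median of 0.704 over the fibroblast markers and ran from -4.73 for Mmp2 to 28.6 for Sparc. These markers include Col1a1, Postn, Lum, Twist2 and Fap, for which every E14 array was below its median, as for Ankrd1 among the targets. Only 2 of the 24 markers, Col1a2 and Sparc, gained more than 5, as did Ccn1, Ccn2 and Amotl2 among the 5 targets. Col1a2 was called higher in AG-haESC than in E14 at 2 of its 3 tested probe sets, with the other at -0.74. With the mean of its probe sets it was not called (1.40, adjusted p = 0.0889). Sparc, a secreted matrix protein, had 13.40, 13.36, 13.08, 13.22 and 13.70 in AG-haESC and 10.83, 10.38 and 11.36 in E14. The lowest share of the MEF level in AG-haESC was 0.954%, for Postn. Fn1, at 28.96%, and Vim and Sparc, which were higher, had larger shares than Ccn1 and Ccn2 and smaller ones than Amotl2. The part of feeder fibroblasts in the target differences was not tested.

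**Figure D3:**
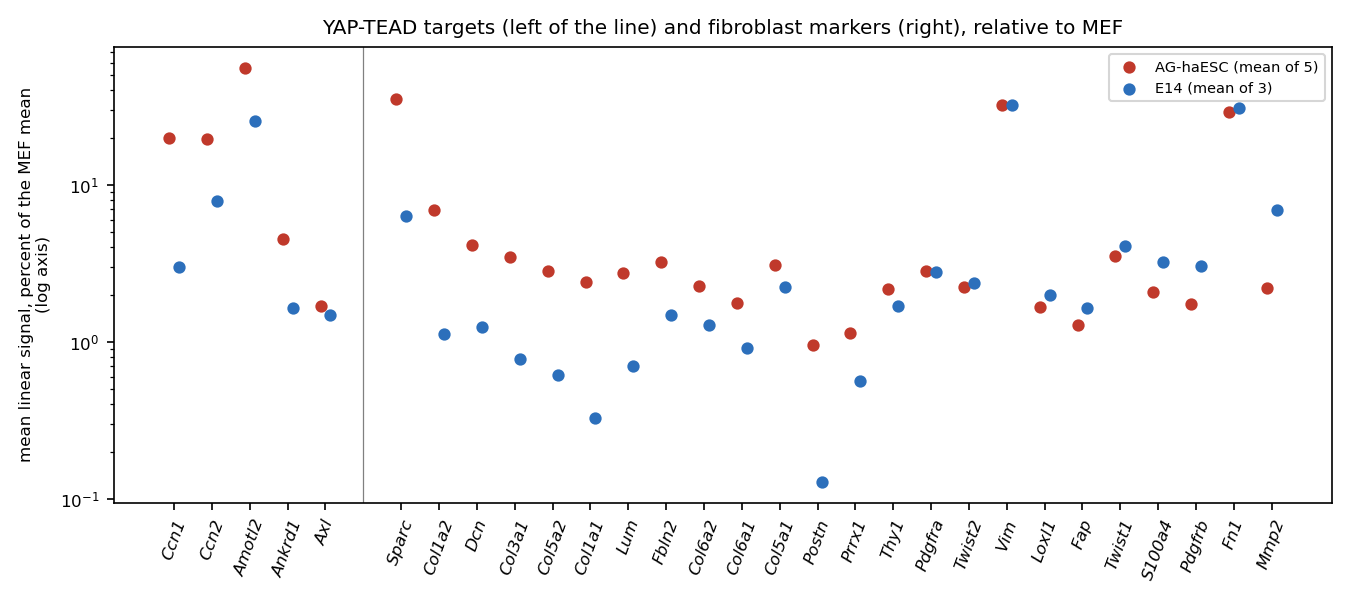
Mean linear signal in AG-haESC (5 arrays) and E14 (3 arrays) as percent of the MEF mean (2 arrays), on a log axis, for the 5 targets left of the line and 24 fibroblast markers right of it, ordered by the gain of AG-haESC over E14. Ccn1, Ccn2 and Amotl2 stand at 19.7% to 55.7% of MEF in AG-haESC. Among the fibroblast markers, Sparc, Vim and Fn1 stand above Ccn1 and Ccn2 and below Amotl2, while most collagens and Postn stand below 5%.

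The order of the AG-haESC lines differed among targets and among fibroblast genes. Ccn1, Ccn2, Amotl2 and Ankrd1 were highest in AG-haESC replicate 5, and the lowest line was replicate 3 for Ccn1 and replicate 4 for Ccn2 and Ankrd1. Col1a1 was 6.96, 9.10, 8.33, 7.04 and 8.55 in lines 1 to 5, and Postn was 6.38, 8.80, 8.10, 7.33 and 7.80, so that replicate 2 was highest and replicate 1 lowest for both. Of the 24 fibroblast markers, 15 were highest in replicate 2 and 3 in replicate 5, and 13 were lowest in replicate 1. Sparc had the same order of lines as Ccn1, and Fn1 (fibronectin) was also highest in replicate 5 and lowest in replicate 3. Axl followed another order, with replicate 2 highest and replicate 4 lowest. In line 1, with the least Col1a1 and Postn but the second-highest Sparc, Ccn1 was 11.84 and Ccn2 12.08, above 3 of the 4 other lines in each case. With 5 lines, each on 1 array, no correlation between these genes was computed, and what sets the order of the lines was not tested.

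**Figure D4:**
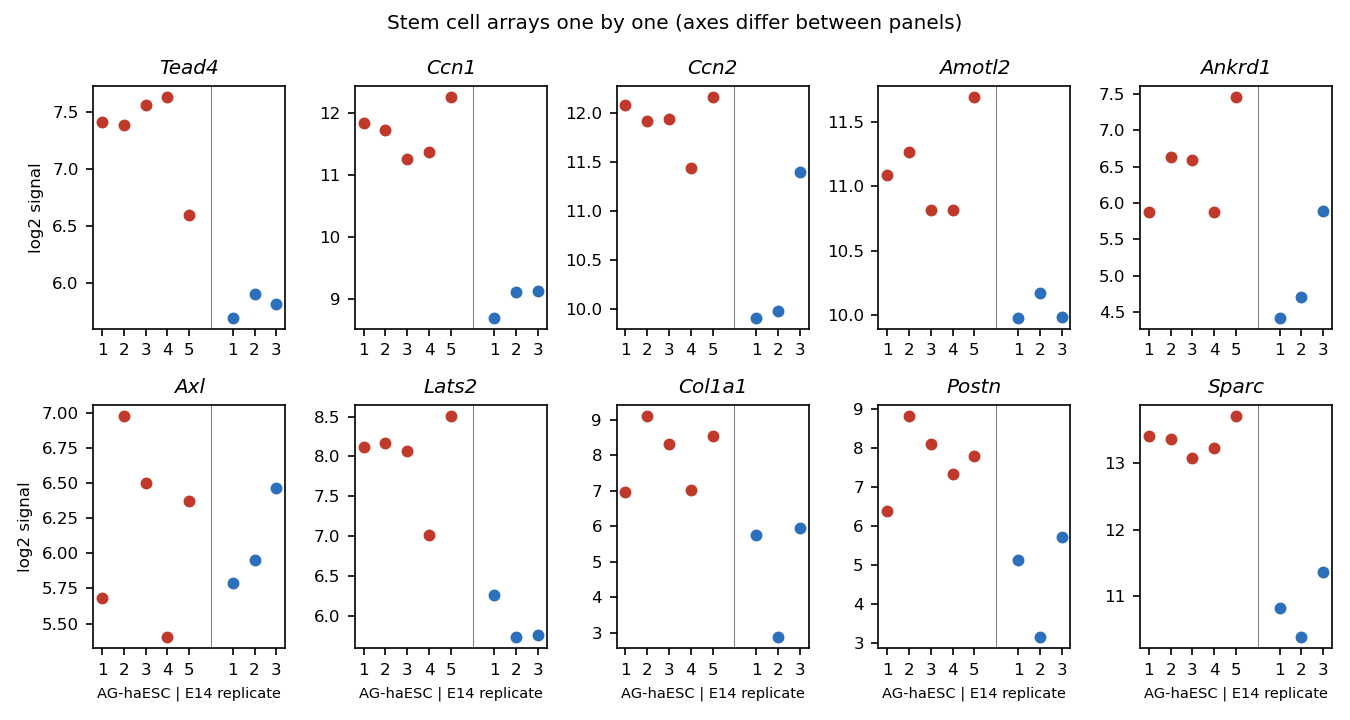
Log2 signal in each AG-haESC and E14 array, by replicate number, for the 4 called targets, Tead4, Axl, Lats2 and 3 fibroblast markers, with a separate axis for each panel. Ccn1, Ccn2, Amotl2 and Ankrd1 peak in AG-haESC replicate 5, as does Sparc, while Col1a1 and Postn peak in replicate 2.

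Upstream of YAP, most Hippo genes were not called between the stem cell groups. Of 23 kinases and regulators tested, 2 were higher in AG-haESC than in E14 and 0 lower by limma, beside 4.38% and 3.61% of all genes. The list's median difference was 0.0018. Lats2, both a kinase that inhibits YAP and itself a target, had 8.11, 8.17, 8.06, 7.01 and 8.5003 in AG-haESC, against 6.27, 5.73 and 5.76 in E14 and 10.83 and 10.78 in MEF. The stem cell groups did not overlap (2.05 ± 0.30, adjusted p = 0.00133), and 2 of its 5 tested probe sets were called. Frmd6, a FERM-domain protein upstream of the kinases, was higher by 1.02 ± 0.19 (adjusted p = 0.00489) and fell under 2-fold without AG-haESC replicates 2 or 5 or E14 replicate 1, where 1 gene was called in place of 2. The remaining core genes were not called at their brightest probe sets. Lats1 differed by -0.15 (adjusted p = 0.702), while its dimmer probe set was called lower in AG-haESC (-1.78 ± 0.27, adjusted p = 0.00166) and the mean of both gave -0.96 (adjusted p = 0.00752). Stk4 (MST1) differed by -0.50 (adjusted p = 0.0454), but its 3 tested probe sets ran from -0.50 to 0.73. Their mean gave -0.046 (adjusted p = 0.900). The scaffold Sav1 differed by -0.026 (adjusted p = 0.954), Nf2 (merlin) by -0.24 (adjusted p = 0.518) and Amot by -0.54 (adjusted p = 0.380). Without E14 replicate 3, or with the mean of probe sets, 1 gene of the list was called lower, and Stk3 (MST2) has no probe set paired with its symbol alone.

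In both stem cell groups 11 of the 23 Hippo genes were lower than in MEF, where 22.5% of all genes were lower in AG-haESC and 21.1% in E14. Fat4, a giant cadherin, was at least 20.2-fold lower in AG-haESC (adjusted p = 7.01e-05) and at least 19.1-fold in E14 (adjusted p = 0.000103). Amot was lower in AG-haESC (-3.12 ± 0.42, adjusted p = 7.52e-05), and Lats2 in E14 (-4.89 ± 0.38, adjusted p = 1.40e-06). The Amot call held at 1 of its 2 tested probe sets, with the other at -0.36. That of Lats2 held at 3 of 5, with differences from -5.24 to -0.19. Wwc1 (KIBRA), an activator of the LATS kinases, was higher than in MEF in AG-haESC (2.03 ± 0.26, adjusted p = 5.66e-05) and in E14 (1.59 ± 0.29, adjusted p = 0.000740), and Stk4 was higher in E14 (1.19 ± 0.18, adjusted p = 0.000227). The Wwc1 call in E14 held at 2 of its 3 probe sets. The Stk4 call held at 2 of its 3 probe sets and not with their mean (0.89, adjusted p = 0.00651). Lats1 was read differently by its 2 probe sets, with E14 minus MEF at -1.99 and 2.03.

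Tead3, a further TEAD gene, and the VGLL cofactors that share the TEAD surface did not pass the test between the stem cell groups. Tead3 differed by -0.22 (adjusted p = 0.574) and Vgll4, which competes with YAP for TEAD, by 0.65 (adjusted p = 0.166). Of Tead3 and the VGLL genes tested, 0 of 4 were called by limma, where 4.38% of all genes were called higher and 3.61% lower. The median difference of these 4 genes was 1.00, beside -0.082 for all genes. Vgll3 had 7.28, 7.86, 7.80, 5.14 and 7.48 in AG-haESC and -0.23, 3.67 and 7.91 in E14, where replicate 3 alone was at the AG-haESC level. Its difference was 3.33 (adjusted p = 0.132), and without E14 replicate 3 it was 5.39 (adjusted p = 0.00307), while Vgll2 was 2.05 (adjusted p = 0.0389), so that 2 genes were called. Against MEF, Vgll3 was lower in AG-haESC (-4.95 ± 1.54, adjusted p = 0.0174), a call that did not hold without MEF replicate 1 (adjusted p = 0.0778) or MEF replicate 2 (adjusted p = 0.101).

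A wider list of 17 other YAP-TEAD targets had a median close to that of all genes between the stem cell groups. In AG-haESC 3 genes were higher and 0 were lower by limma, beside 4.38% and 3.61% of all genes. The median difference was -0.057, beside -0.082 for all genes. The 3 were Lats2, Ccdc80, a matrix protein (at least 1.60-fold, adjusted p = 0.0262), and Crim1, a membrane protein that binds BMPs (adjusted p = 0.0454), for which no fold is given because E14 was below its medians and AG-haESC near them. Ccdc80 and Crim1 were each called at 1 of 2 tested probe sets, and the other of Crim1 gave -0.21. With the mean of probe sets neither was called (Ccdc80 1.63, adjusted p = 0.0922, and Crim1 0.43, adjusted p = 0.375). Only Lats2 was called without AG-haESC replicates 2, 3 or 5, or without E14 replicates 1 or 2. Without AG-haESC replicates 2 or 5, or E14 replicate 1, 1 gene was called lower. F3 (tissue factor) differed by -0.88 ± 0.22 (adjusted p = 0.0223), short of 2-fold. Against MEF, 13 of the 17 were lower in AG-haESC and 11 in E14, beside 22.5% and 21.1% of all genes. Rbms3 was at -6.28 ± 0.35 (adjusted p = 9.41e-08) and Tgfb2 at -5.09 ± 0.32 (adjusted p = 2.40e-07) in AG-haESC minus MEF.

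SRF with its MRTF cofactors responds to actin and shares several targets with YAP, and its list was read beside that of YAP. Of 15 genes, 1 was higher in AG-haESC than in E14, Fhl2 (1.15 ± 0.27, adjusted p = 0.0183), a LIM-domain protein, and the median difference was 0.34. Over all genes 4.38% were called higher. The count was 0 without E14 replicate 2, 2 without AG-haESC replicates 1 or 4, and 5 without E14 replicate 3, when Acta2 (2.61, adjusted p = 0.00332) and Myl9 (2.21, adjusted p = 0.00349) were among the genes called. Without AG-haESC replicate 3, 1 gene was called lower, Cnn1 (-3.53, adjusted p = 0.0397). Myl9, a myosin light chain, was 6.17, 6.17 and 10.33 in the E14 arrays, so replicate 3 was again the high one. Against MEF all 15 were lower in AG-haESC and 14 in E14, beside 22.5% and 21.1% of all genes.

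**Figure D5:**
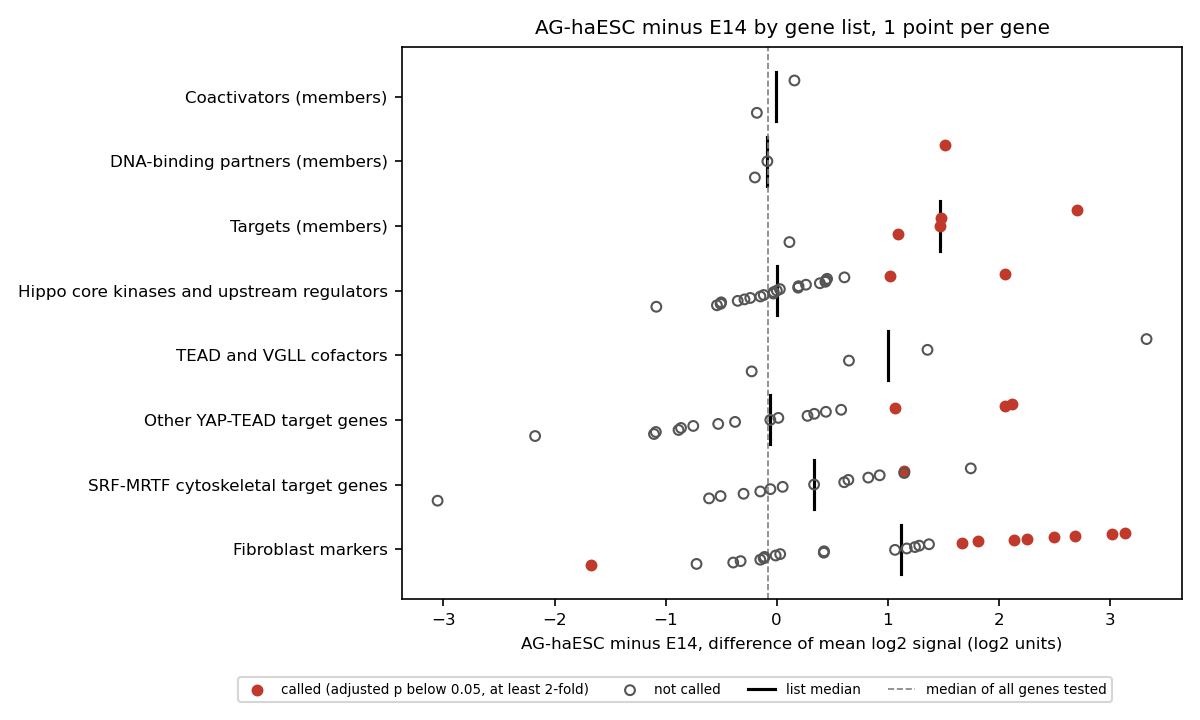
AG-haESC minus E14 difference of mean log2 signal (log2 units), 1 point per gene, by list, with called genes filled, the list median as a bar and the median of all genes dashed at -0.082. The 5 targets have a median of 1.47, while the Hippo and wider target lists have medians of 0.0018 and -0.057. The fibroblast markers have a median of 1.12, the list of Tead3 and VGLL cofactors 1.00, and the SRF-MRTF list 0.34.

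The genes whose pattern over the 10 arrays was most like that of a YAP-TEAD gene were found by the root mean square difference of gene-centred log2 signals among 13251 genes. For Ccn1 they were Capn6 (0.313 log2 units), Mex3b (0.427) and Sparc (0.461), where Ccn1's own root mean square deviation was 1.81. For Ccn2 they were Ahnak (0.273), Glis3 and Nid1, and for Ankrd1 Fbln2 (0.324), Anxa3 and Pmp22. Tead4 was closest to Nr2c2ap (0.206), Cfap206 and Haus4. Yap1, with a flatter pattern, was closest to Nsmce3 (0.103), Crebbp and Dnajb12, and Tead2 to Wbp2 (0.0938), 4930445K14Rik and Scamp5. The measure describes levels over arrays that share 3 groups, and carries no test.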

How the data were processed

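The deposited values are linear intensities, 1 per probe set and array, from MAS5 per the submitters' processing notes. The trimmed mean of every array is 500, so total RNA per cell cannot be read from them. Values were put on the log2 scale. The table has 45101 probe sets, of which 64 controls were dropped, and the 27505 that exceeded the median of their array on 2 or more arrays were tested. All 10 arrays entered 1 fit of 3 group means with limma 3.58.1 in R 4.3.3 (7 residual degrees of freedom, variance prior that follows the signal), with Benjamini-Hochberg adjustment over all probe sets of a comparison. P-values are two-sided, and standard errors come from the fit. An "at least" fold puts a group whose arrays are all below their medians at those medians. The fit was tested on simulated data with known changes. Of changes of 1.5 log2 units it recovered 53% for AG-haESC against E14, 57% for AG-haESC against MEF and 44% for E14 against MEF. Of changes of 3 log2 units it recovered 84%, 82% and 76%. A gene that was not called may therefore still differ. The number of arrays limits the precision.

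The 10 genes, the wider lists and the tests were chosen with earlier results of these data known. Named outside the 10 were the core Hippo genes, the 3 genes nearest in pattern, and up to 3 called genes per list, direction and comparison. This last rule covered the Hippo, cofactor, wider target and SRF-MRTF lists, and the fibroblast list for AG-haESC against E14. Lists of muscle, macrophage, endothelial and trophectoderm markers were also fitted. Alternatives covered the filter, pseudocount, floor, normalization, variance prior, array weights, samples in the fit, choice of probe set, and each array left out.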

Additional observations from a re-analysis of the deposited data

Results flagged for a closer look

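Tead4 in AG-haESC replicate 5 (AGH-OG-4) was 6.60 at the brighter probe set, 1426337_a_at, below the 7.39 to 7.63 of the other 4 lines, with a gap that took 0.762 of the group's range. It was the only 1 of 19 tested probe sets with such a sample, where chance gives about 1 in 20. At the second Tead4 probe set the same line had 6.98, within the 6.61 to 6.99 of the group.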

How the results depend on the processing

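Over all alternatives run, the differences of the 10 genes kept their call in 600 cases, lost it in 16 and gained it in 4. No called difference changed sign, but 6 differences between AG-haESC and E14 that were not called did, of Wwtr1 (-0.12 with array weights, -0.077 without E14 replicate 3), Axl (-0.082 without AG-haESC replicate 2, -0.024 without E14 replicate 1), and, with the mean of probe sets, Yap1 (0.22) and Tead1 (0.29). The lost calls were those of Ankrd1 and Amotl2 against E14 and of Tead1 against MEF, as given with the results. Genes called higher in AG-haESC than in E14 numbered 3 to 5 over the fits that leave out 1 array, with the count of 3 reached without AG-haESC replicate 5. Probe sets called higher and lower in AG-haESC against E14 numbered 1202 and 795, and 1873 and 1448 with array weights. With 1 feature per gene they were 607 and 495 at the brightest probe set and, averaging probe sets, 632 and 474, because fewer features were tested. The same 2 choices gave 2609 and 2987, and 2593 and 2957, against 5280 and 5489 for AG-haESC and MEF, and 2764 and 2817, and 2739 and 2785, against 5434 and 5254 for E14 and MEF. Leaving out 1 array gave 964 to 1553 probe sets higher and 484 to 1040 lower in AG-haESC against E14, with 503 and 484 lower without E14 replicates 1 and 2, and the cause was not tested. Lats1 in E14 minus MEF turned to 0.017 (adjusted p = 0.958) with the mean of its probe sets, which differ in sign. E14 and MEF share replicate numbers 1 and 2, but deviations of same-numbered arrays correlated at -0.022 over probe sets, so the numbers do not pair them. With the replicate number as a block, member genes lower in E14 were 6, the same count as without it. Quantile normalization moved the differences over all tested probe sets by a median of 0.034, 0.094 and 0.058 in the 3 comparisons. Signals near the array median (Tead4, Ankrd1 and Axl in the stem cells) limit what their differences can show.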

Other observations

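TEAD4 acts in the trophectoderm of the embryo, and a list of trophectoderm markers was read beside it. Of 6 markers tested, 1 was higher in AG-haESC than in E14 and 0 were lower by limma, beside 4.38% and 3.61% of all genes. Gata3, a trophectoderm transcription factor, had 7.84, 7.47, 7.48, 6.56 and 8.63 in AG-haESC, against 4.39, 0.64 and 1.57 in E14 and 6.66 and 7.04 in MEF. It was at least 2.95-fold higher in AG-haESC than in E14 (adjusted p = 0.000806), where every array was below its median, and was not called against MEF (0.75, adjusted p = 0.476). Cdx2 and Elf5, which define the lineage, had no tested probe set. Hand1 differed by -0.33 (adjusted p = 0.639), Eomes by 0.39 (adjusted p = 0.347), Tfap2c by 0.57 (adjusted p = 0.234), and the simple keratins Krt8 by 0.82 (adjusted p = 0.392) and Krt18 by 1.00 (adjusted p = 0.113). Without E14 replicate 3, 3 of the 6 were called higher. The rule for naming genes did not cover this list, and its genes, Gata3 included, were named with values of these data seen.

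Of the other marker lists, 1 of 10 muscle genes (Mylpf), 2 of 9 macrophage genes (Cd14 and Fcgr3) and 0 of 6 endothelial genes were higher in AG-haESC than in E14 by limma. Over all genes 4.38% were called higher. For Fcgr3 all arrays of both stem cell groups were below their medians. Lyz2 and Ptprc, abundant in macrophages, were below the array median in every array of both stem cell groups.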
